A study of Mus musculus with 1699 samples.

Results

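Imprinted genes are genes of which mainly the maternally or mainly the paternally inherited copy is transcribed. A list of 36 such mouse genes was followed in single ventral midbrain cells by stage, by genotype and by the level of Th, the gene of tyrosine hydroxylase, which makes the dopamine precursor. The members were listed by name, with no threshold on a value. Of the 36, 34 matched an entry among the 39468 gene entries of each cell, and Kcnq1ot1 and Peg13 were not analysed here.

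The cells were GFP-positive cells sorted from the ventral midbrain and sequenced with Smart-seq2, a full-length single-cell method. In all groups eGFP is placed in the locus of Pitx3, a transcription factor of midbrain dopamine neurons (allele Pitx3tm1Mli), so that GFP marks cells in which the locus is active. Heterozygotes (Pitx3eGFP/wt) keep a working copy of Pitx3 and homozygotes (Pitx3eGFP/eGFP) lack it. Heterozygotes were sampled on embryonic days 13.5, 15.5 and 18.5 (E13.5 to E18.5) and on days 1, 7 and 90 after birth (P1 to P90), and homozygotes at E13.5 and P1. Of 1699 cells 1481 were kept after filtering. Of these 1481, the heterozygote stages in order of age made up 9.39%, 9.45%, 12.6%, 18.03%, 5.74% and 21.9%, and the homozygotes 12.1% at E13.5 and 10.7% at P1.

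Several animals were used at each stage, mice of both sexes were used in the study, and no label ties a cell to an animal. Each stage and genotype was therefore 1 sample, no test between groups was possible, and the values are means over cells, shares of cells and their spread. Exact 95% intervals of a share, and Newcombe intervals of a difference between shares, cover counting error only, since cells of 1 animal are not independent. A Neural Tissue kit was used to dissociate E13.5 to E18.5 tissue, a Postnatal Neuron kit P1 and P7 tissue and papain P90 tissue, so kit and age cannot be told apart between these blocks. External spike-in RNA (ERCC) had been added to the E13.5 and P1 homozygote cells, to E18.5 and P90 cells and to 94 of the P1 heterozygote cells (35.2%), and to no other group, so genotype cannot be told apart from spike-in and plate at E13.5. At P1 the comparisons of genotype, also those among cells with ERCC, were not matched by plate.

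The P1 and P7 groups share cells. Over whole profiles, 57 pairs of a P1 and a P7 heterozygote library had a Pearson correlation of at least 0.968 across 12241 entries, whereas no other pair of libraries exceeded 0.778, and in all 57 pairs both titles carried the same number. These were taken as libraries of the same cells under both stage labels, and the labels do not tell which stage is theirs. Among kept cells, 47.1% of the P7 cells and 15.4% of the P1 heterozygote cells belong to such a pair, none of them with ERCC, so P1 and P7 are not independent stages and 40 of the 1481 cells are counted under both. Values are given by label, and the values without these cells, which leave 45 P7 cells, are given for stage means, classes and calls. Marker shares, the further list, quartiles and correlations between cells are by label alone.

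The median depth over all kept cells was 1628759 reads on genes, and group medians lay between 753256 in E13.5 homozygotes and 2354720 in E13.5 heterozygotes. Pitx3 itself had a mean RPKM (reads per kilobase of transcript, scaled to the reads of the cell) of 419 in E13.5 heterozygotes against 18.8 in homozygotes, and of 106.1 against 8.41 at P1, in the direction of the labels. Mean Th was between 1336 and 1744 in the heterozygote groups, and 565 and 750.3 in the E13.5 and P1 homozygotes. Neuronal markers were found in nearly all cells. Kept cells with markers of astrocytes, microglia, vessels or oligodendrocytes were most frequent at P1 (8.24%), at P7 (28.2%) and in P1 homozygotes (13.8%), and the values without them are given where they matter.

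Imprinted genes lie in clusters, in which the copy to be transcribed is set by DNA methylation laid down in the egg or the sperm. Many of them act on fetal growth, on the exit of progenitors from the cell cycle or on feeding and behaviour, and a number are transcribed mainly in the brain. In some clusters a long noncoding RNA and protein-coding genes are read from opposite parental copies. The reads were not assigned to a parental copy here, so all values are the sum of both.

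The members differed widely in their course through development. Of the 34, 33 reached a mean of 1 RPKM at some heterozygote stage, and Phlda2, a growth-restricting gene of the placenta, stayed at or under 0.573. The highest stage mean was embryonic (E13.5 or E15.5) for 10 members, perinatal (E18.5, P1 or P7) for 15 and at P90 for 8. These are 30.3%, 45.5% and 24.2% of the members, beside 39.9%, 35.4% and 24.8% of the 17288 entries that reached 1 RPKM. At P90, 15 members (45.5%) were more than 2-fold under their highest stage mean, beside 40.3% of all entries, and 18 were within 2-fold of it, beside 59.7%. The 9 members with an embryonic maximum and 6 with a perinatal one made up the 15, while Igf2r was the single member with an embryonic maximum that stayed within 2-fold. With ERCC cells alone, which leaves E18.5, P1 and P90 only, 13 members (beside 39.6% of entries) had their maximum at P90 and 8 (beside 22.6%) were more than 2-fold under it there. Without the cells found at both P1 and P7, 9 members were highest in the embryo (beside 38.6%), 16 around birth (beside 38.4%) and 8 at P90 (beside 23%), since Asb4 was then highest at P7 (66.5 RPKM). With Plagl1 in addition, 16 were more than 2-fold under their maximum at P90 (beside 41.6%) and 17 were within 2-fold (beside 58.4%).

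Several P7 means moved without the shared cells. The P7 mean of Cdkn1c was 9.52 RPKM in place of 17.6, that of Impact 105.7 in place of 73.98, that of Gnas 334.1 in place of 257.2 and that of Igf2 103.04 in place of 54.7. Grb10 was at 54.5 in place of 40.5 and Rasgrf1 at 14.3 in place of 10.98. The P7 share of cells over 10 RPKM was 13.3% in place of 25.9% for Cdkn1c. It was 84.4% in place of 72.9% for Impact and 28.9% in place of 20% for Rasgrf1. Mkrn3 was at 43.4 RPKM at P7, with 68.9% of cells over 10 RPKM, and at 37.4 at P1. At P1 the mean of Dlk1 was 135.3 RPKM in place of 126.2 and that of Cdkn1c 16.5 in place of 18.3. Nnat was at 2724 RPKM at P7 and still the highest member there in RPKM, with 97.8% of cells over 10 RPKM.

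**Figure D1:**
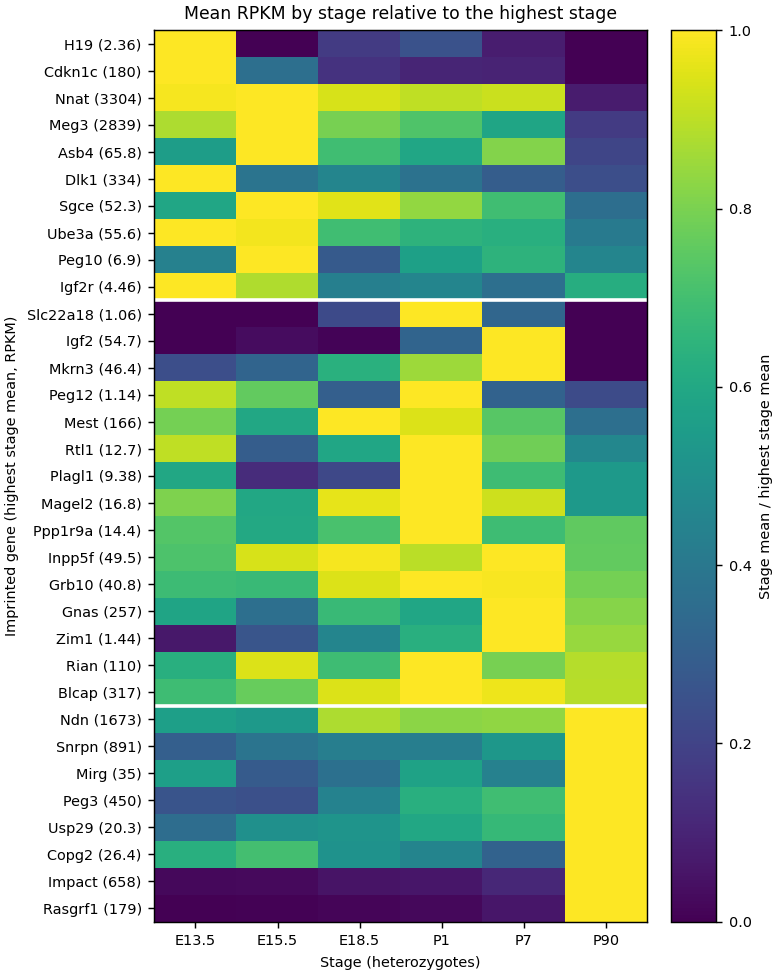
Mean RPKM of the imprinted genes at the 6 heterozygote stages, relative to the highest stage mean of each gene. Genes such as Cdkn1c start high and fade, Mest is highest at E18.5 and Mkrn3 at P7, and Impact and Rasgrf1 are highest at P90. The P7 column includes the cells also found at P1.

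The Prader-Willi and Angelman region of mouse chromosome 7 holds 6 of the members, and its genes took different courses. Mkrn3 (chr7:62417593-62420139, GRCm38), which encodes a RING finger protein whose loss brings early puberty, had mean RPKM values, in order of age, of 11.1, 14.9 and 29.4 in the 3 embryonic stages, 39.5 at P1, 46.4 at P7 and 0.0758 at P90. The share of cells over 10 RPKM was 17.3% at E13.5, 54.7% at P1 and 63.5% at P7, and at P90 a single cell (0.308%, 95% interval 0.00779 to 1.70%) was over it. The decline after P7 was thus a near absence from adult cells and not a lower level in the same share of cells. Necdin (Ndn, chr7:62346569-62350262), a MAGE-family protein of postmitotic neurons that lies nearby, was abundant throughout, with 942, 902, 1465, 1384, 1393 and 1673 RPKM in the same order of stages. At P90 the lowest cell had 88.8 RPKM of Ndn. Snrpn, the gene of the splicing protein SmN, was at 271.4, 341.4, 379.7, 381.6, 473 and 891 RPKM, and its P90 quartiles (730.3 to 1012) lay above the upper quartile of every earlier stage.

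Magel2 (chr7:62377010-62381640), a further MAGE-family gene that takes part in ubiquitin ligation, was found in fewer cells. Its means were 13.5, 10.1, 16.1, 16.8, 15.5 and 9.07 RPKM, and 22.1% to 43.5% of cells exceeded 10 RPKM at any stage. Ube3a, the ubiquitin ligase missing in Angelman syndrome, had 55.6, 54.7, 38.7, 35.9, 35.2 and 23.01 RPKM, and 70.5% of P90 cells were over 10 RPKM. The Ube3a entry shares 1803 exonic bases with an antisense transcript, Snhg14, and the libraries carry no strand, so the reads there cannot be split. Peg12, a regulator of Wnt signalling, did not exceed a mean of 1.14 RPKM at any heterozygote stage.

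Mkrn3 and Magel2 are close neighbours and their levels parted at P90, so the sequences before their starts are given. The 250 bases before each transcription start are from RefSeq for GRCm38.p6, 5′ to 3′ on the strand of the gene, at chr7:62420154-62420403 on the minus strand for Mkrn3 and chr7:62376729-62376978 on the plus strand for Magel2, with CG pairs, the sites of DNA methylation, in capitals.
Mkrn3: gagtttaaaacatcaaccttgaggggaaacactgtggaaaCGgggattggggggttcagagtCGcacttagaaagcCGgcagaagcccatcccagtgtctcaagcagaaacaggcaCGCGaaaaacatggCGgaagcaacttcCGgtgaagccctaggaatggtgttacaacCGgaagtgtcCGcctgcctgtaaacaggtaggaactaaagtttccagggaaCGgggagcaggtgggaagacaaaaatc
Magel2: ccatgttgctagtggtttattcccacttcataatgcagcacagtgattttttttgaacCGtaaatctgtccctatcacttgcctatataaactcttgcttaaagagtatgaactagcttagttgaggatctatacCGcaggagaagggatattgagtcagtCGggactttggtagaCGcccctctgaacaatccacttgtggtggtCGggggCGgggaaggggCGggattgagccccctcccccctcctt
The Mkrn3 window holds 10 CG pairs and the Magel2 window 7, while the median of 32851 promoters of that length was 6. At least as many pairs stood in 37.8% of all promoters as in that of Mkrn3 and in 46.3% as in that of Magel2. No methylation was measured.

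The Dlk1-Dio3 region on chromosome 12 is read from the paternal copy for Dlk1 and Rtl1 and from the maternal copy for the noncoding RNAs Meg3, Rian and Mirg. Dlk1, a transmembrane protein related to the ligands of Notch, had mean RPKM values of 334.2, 128.3, 152.3, 126.2, 98.5 and 80.7 from E13.5 to P90, and the share of cells over 10 RPKM went from 82.7% to 40.3%. In reads scaled to depth alone (RPM) the P90 mean was 193.8, close to the 201.8 of E18.5 and above the 135.4 of P7, since the RPKM per read of this entry with several transcripts was lower at P90. Meg3, among the most abundant long noncoding RNAs of neurons, had 2490.2, 2839, 2257, 2060.4, 1672 and 492 RPKM. Its RPM means were 2861, 3869, 4465, 4114, 3112 and 1342, so the P90 mean was the lowest in both units and the stage of the maximum depended on the unit.

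Rian, the host of small nucleolar RNAs, had means between 69.3 and 109.7 RPKM. At P90 (97.6) it was within 2-fold of its P1 maximum, and 64.03% of E13.5 cells but 95.7% of P90 cells exceeded 10 RPKM. Mirg, a host of microRNAs, was highest at P90, with 19.8, 10.1, 13.0, 20.1, 15.4 and 34.98 RPKM. The entry of Rtl1, derived from a retrotransposon and needed in the placenta, had 11.5, 3.77, 7.498, 12.7, 9.96 and 5.89 RPKM. Its exons overlap several microRNA genes of the opposite strand, and the libraries carry no strand. The reads there cannot be split, so all values given for Rtl1 are those of the entry and may include antisense reads. Members of this single region therefore fell in all of the 3 classes, embryonic, perinatal and adult.

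Among growth regulators, Cdkn1c, an inhibitor of cyclin-dependent kinases that acts in the maturation of midbrain dopamine neurons, showed a steep course. Its means were 179.7, 65.7, 26.1, 18.3, 17.6 and 0.522 RPKM, and the share of cells over 10 RPKM was 87.1%, 67.1%, 34.8%, 29.2%, 25.9% and 1.54%. Without the cells found at both P1 and P7, the P7 share was 13.3%. The median cell had 105.1 RPKM at E13.5 and none from E18.5 on. Igf2, the fetal growth factor, had a mean of 17.7 RPKM at P1 and 54.7 at P7, but 1.12% and 2.35% of cells were over 10 RPKM, and without the cells that hold markers of other cell types the means were 0.0742 and 0.253. H19, the noncoding neighbour of Igf2, and Slc22a18, a transporter, had no stage mean over 2.36 and 1.06 RPKM. Igf2r, the receptor that clears the factor, lay between 1.62 and 4.46 RPKM. Grb10, an adaptor that damps insulin and growth factor receptors, stayed between 27.7 and 40.8 RPKM, with 34.5% of cells over 10 RPKM at E13.5 and 66.5% at P90. Plagl1, a zinc finger transcription factor, lay between 1.17 and 9.38 RPKM.

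The zinc finger gene Peg3 on proximal chromosome 7 was higher at each later stage after E15.5, with 117.9, 109.5, 199.8, 284.4, 312.7 and 450.4 RPKM. Usp29, a ubiquitin protease read from the same start region in the opposite direction, had 7.24, 10.1, 10.5, 12.1, 13.6 and 20.3 RPKM, and 16.5% of cells at E13.5 and 49.5% at P90 exceeded 10 RPKM. Zim1, a zinc finger gene next to Peg3, stayed at or under 1.44 RPKM. Both members with a stage mean over 10 were thus highest at P90.

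The chromosome 6 members went apart after birth. Mest, a protein of the hydrolase family, had 131.04, 99.4, 165.5, 156.99, 122.3 and 60.7 RPKM. Copg2, a coat protein of transport vesicles, had 16.6, 18.5, 13.5, 11.9, 8.31 and 26.4. Mest and Copg2 share 912 exonic bases at their ends. Sgce, the sarcoglycan mutated in myoclonus-dystonia, had 31.01, 52.3, 50.03, 43.9, 36.3 and 18.8 RPKM, and Asb4, an adaptor of ubiquitin ligases, had 36.6, 65.8, 45.5, 38.9, 53.5 and 13.7. Ppp1r9a, an actin-binding protein of synapses, stayed between 8.73 and 14.4 RPKM, and Peg10, derived from a retrotransposon, between 1.96 and 6.90.

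Neuronatin (Nnat, chr2:157560078-157562522), a small membrane protein of developing neurons, had the highest mean RPKM of all members at each stage up to P7. This order is that in RPKM and depends on the unit. At E18.5 the median RPKM per RPM of a cell was 1.11 for Nnat and 0.503 for Meg3. Its means were 3253, 3304, 3109.7, 2983 and 3036 RPKM up to P7 and 249.8 at P90. At P90 49.8% of cells were over 10 RPKM and the median cell had 7.84, with an upper quartile of 245.1, whereas at the earlier stages at least 98.8% of cells were over 10 RPKM. Thinned to 100000 reads a cell, the P90 share was 50.5%. Blcap, within which Nnat lies on the opposite strand, had 218.7, 243.2, 300.3, 317.1, 308.8 and 283.4 RPKM. Gnas, the gene of the stimulatory G protein that couples dopamine and other receptors to adenylate cyclase, had 150.1, 93.9, 174.7, 152.3, 257.2 and 210.9 RPKM.

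Impact, Rasgrf1 and Inpp5f complete the list. Impact, which restrains an arm of the stress response that slows translation, had 13.1, 17.3, 33.7, 39.2, 73.98 and 658 RPKM. All P90 cells were over 10 RPKM, with a lowest cell of 15.5 and a median of 642, while 72.9% of P7 cells were. Rasgrf1 (chr9:89909908-90026977), which activates Ras in response to calcium in neurons, had 0.0807, 0.970, 2.40, 3.68, 10.98 and 178.8 RPKM, and the share of cells over 10 RPKM was 0.719% at E13.5, 20% at P7 and 80% at P90. Inpp5f, a phosphoinositide phosphatase, stayed between 35.7 and 49.5 RPKM. The 250 bases before the start of Rasgrf1, the member with the steepest course towards P90, are from RefSeq for GRCm38.p6 at chr9:89909525-89909774 on the plus strand, 5′ to 3′, with CG pairs in capitals.
Rasgrf1: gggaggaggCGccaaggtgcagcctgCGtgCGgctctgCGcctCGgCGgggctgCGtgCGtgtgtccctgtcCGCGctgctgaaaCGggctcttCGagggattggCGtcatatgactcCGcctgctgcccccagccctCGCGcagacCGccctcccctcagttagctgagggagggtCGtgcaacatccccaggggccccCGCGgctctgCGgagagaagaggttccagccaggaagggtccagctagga
This window holds 21 CG pairs, a number that 16.3% of promoters of the same length reach.

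**Figure D2:**
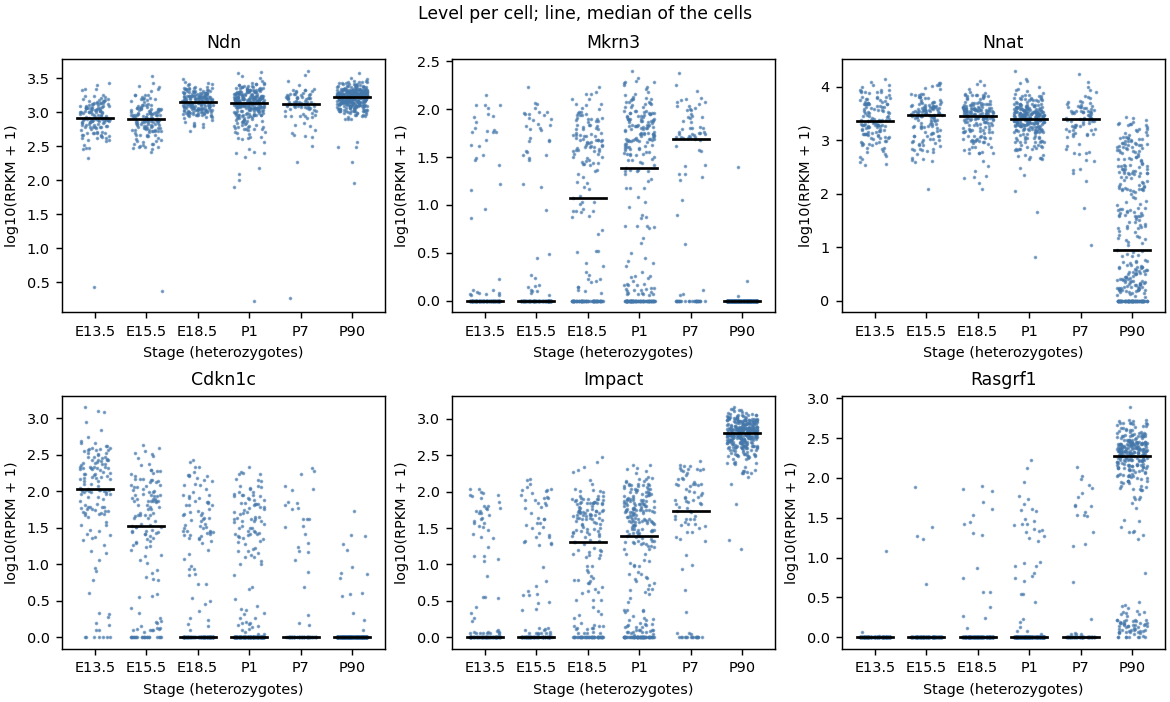
Level of single heterozygote cells at each stage, as log10 of RPKM plus 1, for chosen imprinted genes, with 1 point a cell and a line at the median. Nnat spreads at P90 from none to values like those of earlier stages, Mkrn3 is nearly empty at P90, and Impact and Ndn lie high in nearly all P90 cells. Cells found under both labels are drawn at P1 and at P7.

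Between stages a member was called where the ratio of means was 2-fold or more and 1 of the groups reached 1 RPKM. From P1 to P90, 4 of 32 members were higher (beside 13.1% of all entries) and 11 were lower (beside 21.5%), and 17 were neither. Without the cells found at both P1 and P7, the same 4 were higher (beside 13.2%) and 12 were lower (beside 21.6%), Plagl1 in addition to the 11. The median log2 ratio was -0.37 over the members and -0.16 over all 15768 entries. The higher members were Rasgrf1 (48.6-fold), Impact (16.8-fold), Snrpn (2.33-fold) and Copg2 (2.21-fold). Among the lower members with at least 10 RPKM at P1 were Cdkn1c (35-fold), Nnat (11.9-fold), Meg3 (4.19-fold), Asb4 (2.85-fold), Mest (2.59-fold), Sgce (2.33-fold) and Rtl1 (2.16-fold), beside Mkrn3 and the few Igf2 cells. Peg12 and Slc22a18, with means near 1 RPKM at P1, were the others. The mix of cells differed, with 65.5% of P1 and 54.8% of P90 cells over 150 RPKM of Th. In cells over 150 RPKM of Slc6a3, the dopamine transporter, E18.5 to P7 cells together were compared with P90. Asb4 (30.3 and 21.3 RPKM), Mest (122.99 and 94.96) and Rtl1 (8.23 and 6.93) were within 2-fold. Cdkn1c, Nnat (3330.5 and 839), Meg3 and Sgce (44.98 and 19.2) were not, and Dlk1 was at 162.6 and 257.5. How far the mix accounts for the stage calls was not tested. Like the P90 cells, 94 of the P1 cells carry ERCC, and with these alone 8 members were higher (beside 17.8% of entries) and 7 lower (beside 17.5%). Rtl1 was then at 6.04 RPKM against 5.89 at P90 and Mest at 110.4 against 60.7 (1.82-fold), so neither was past the limit, and Igf2, Peg12 and Slc22a18 were under 1 RPKM at both stages and could not be compared. Mirg (2.93-fold), Usp29 (2.37-fold), Peg3 (2.13-fold) and Peg10 were higher and H19 lower in addition.

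From E13.5 to E18.5, stages dissociated with the same kit but without ERCC in any E13.5 and with it in every E18.5 heterozygote cell, so that stage and spike-in cannot be told apart, 3 of 30 members were higher (beside 18.5% of entries) and 6 were lower (beside 13.2%). Mkrn3 (2.65-fold), Impact (2.57-fold) and Rasgrf1 were the higher ones. Cdkn1c (6.89-fold), Dlk1 (2.19-fold), Peg12, H19, Igf2r and Plagl1 were the lower ones. Mkrn3, Cdkn1c and Impact kept their calls under all of the 11 alternative settings tried. From E13.5 to P90, 6 of 31 members were higher (beside 25% of entries) and 10 were lower (beside 24.8%), among them Ube3a (2.42-fold lower) and Peg3 (3.82-fold higher), neither of which was called in the other pairs of stages with all cells.

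The level of Th separated some members within a stage. Cells over 150 RPKM of Th are called Th-high here and the others Th-low. At P90, 54.8% of cells were Th-high, and 4 of 27 members were higher in Th-high cells (beside 5.97% of all entries) and 1 was lower (beside 6.34%). Nnat had 432 RPKM in Th-high and 28.7 in Th-low cells, with 65.7% and 30.6% of cells over 10 RPKM, a difference of 35.1 points (24.4 to 44.6). Dlk1 had 134.1 against 15.9 RPKM and Asb4 22.9 against 2.41. Peg10 had 4.28 against 1.76. Rasgrf1 went the other way, with 121.8 RPKM in Th-high and 247.8 in Th-low cells, and 64.04% against 99.3% of cells over 10 RPKM.

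The P90 differences by Th in Nnat, Dlk1, Asb4 and Rasgrf1 had the same direction on each of the 4 named plates, and that of Peg10 did not, with 1.42 RPKM in Th-high and 1.65 in Th-low cells of plate 4. Nnat lay between 292.5 and 644 RPKM in the Th-high cells of the plates and between 11.5 and 47.4 in their Th-low cells. Dlk1 lay between 86.9 and 180 in Th-high and between 7.19 and 33.9 in Th-low cells, and the values of Asb4 were 10.5 to 33.7 and 1.45 to 4.80. Rasgrf1 was between 105.6 and 161.98 in Th-high and between 230.4 and 277.5 in Th-low cells. The ranges of the plates thus did not overlap for these 4 genes, which were chosen by their Th call in the same cells. The share of all entries with the same direction on each plate, or without overlap, is not given. The Rasgrf1 ratio of 2.03 lies just beyond the 2-fold limit, and it was under it with a Th limit of 50 or 10 RPKM and without plate 1, 2 or 5.

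**Figure D3:**
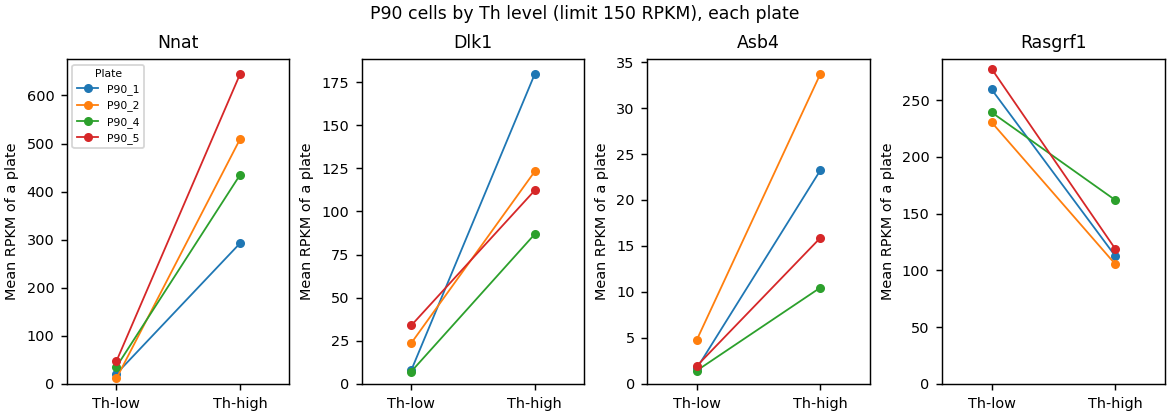
Mean RPKM of Nnat, Dlk1, Asb4 and Rasgrf1 in the Th-high and Th-low P90 cells of each plate, 1 line a plate. The Th-high means of Nnat, Dlk1 and Asb4 lie above, and those of Rasgrf1 below, the Th-low means on every plate.

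The same P90 cells can be split by the transporter of dopamine, Slc6a3, which 71 cells held over 150 RPKM, 70 of them Th-high. In these cells Nnat had 839 RPKM against 85.1 in the rest, with 94.4% and 37.4% of cells over 10 RPKM. Dlk1 had 257.5 against 31.2 RPKM. Rasgrf1 had 42.7 against 216.8 RPKM, with 32.4% and 93.3% of cells over 10 RPKM. The other members called by Th were within 2-fold here, Asb4 at 21.3 against 11.5 and Peg10 at 3.83 against 2.95. Inpp5f, not called by Th, had 15.4 against 43.9 RPKM, with 49.3% and 80.7% of cells over 10 RPKM. The 170 cells over 150 RPKM of Nxph4, a secreted ligand of neurexins, had Nnat at 48.3 against 471 and Dlk1 at 10.5 against 157.7 in the others, and Rasgrf1 at 219.1 against 134.5. Only 2 cells were over the limit of both genes, so the others held nearly all Slc6a3 cells. Without the Slc6a3 cells, Nnat was at 37.2 against 178.5 RPKM and Dlk1 at 6.59 against 79.4, and Rasgrf1 was at 221.4 against 207.8. The 81 cells over 150 RPKM of Gad2, an enzyme of GABA synthesis, had Nnat at 90.1 against 302.8, Dlk1 at 42.2 against 93.5 and Rasgrf1 at 240.9 against 158.2, and 3 cells were over the limit of both Gad2 and Slc6a3. Without the Slc6a3 cells, Nnat was at 63.99 against 94.4, Dlk1 at 40.6 against 27.1 and Rasgrf1 at 242.3 against 205.5, so the direction of Dlk1 turned.

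At P1, 65.5% of cells were Th-high and 92 cells Th-low, and 2 of 31 members were higher in Th-high cells (beside 7.17% of entries) and 5 were lower (beside 12.7%). Dlk1 had 180.9 RPKM in Th-high and 22.1 in Th-low cells, with 81.7% and 27.2% of cells over 10 RPKM. Magel2 had 12.01 against 25.8 RPKM and Rasgrf1 1.69 against 7.47. Peg10 was the other higher member, and Slc22a18, Igf2 and Plagl1 were the other lower ones. Igf2 turned direction, with a log2 ratio of 0.64 without the cells that hold markers of other cell types. With a Th limit of 10 RPKM it was 0.81. With ERCC cells alone, 67 Th-high and 27 Th-low, 3 members were higher (Dlk1, Mirg and H19, beside 14.1% of entries) and 2 lower (Igf2r and Rasgrf1, beside 13.6%). Dlk1 was at 127.9 against 5.71 RPKM (22.4-fold) and Rasgrf1 at 1.79 against 6.25. Mirg was at 14.7 against 5.06, while with all cells it was at 17.2 against 25.6. Magel2 (9.96 against 15.7), Peg10 and Plagl1 were not past the limit, and Slc22a18 and Igf2 were too low to be compared. Without the cells found at both P1 and P7 the same 2 members were higher (beside 7.83%) and the same 5 lower (beside 14.2%). Nnat at P1 had 3116 RPKM in Th-high and 2730 in Th-low cells, and the P90 mean was lower in each class.

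At E13.5, 90 cells were Th-high and 49 Th-low, and 8 of 29 members were higher in Th-high cells (beside 15.1% of entries) and 3 were lower (beside 11.4%). Of the 8, 3 belong to the Dlk1-Dio3 region. Dlk1 had 448 against 124.9 RPKM, Rian 90.1 against 30.9 and Rtl1 14.6 against 5.79. Meg3 (2984 against 1583) and Mirg (19.3 against 20.8), of the same region, were within 2-fold. A further 4 of the 8 lie on proximal chromosome 6: Asb4 had 46.9 against 17.7, Sgce 37.7 against 18.7, Ppp1r9a 13.5 against 5.17 and Peg10 4.50 against 0.346. The Sgce ratio lies just past the 2-fold limit, and it was under it in RPM and with a Th limit of 50 or 10 RPKM. Cdkn1c had 220.7 against 104.4 RPKM. Magel2, with 8.39 against 23.01 RPKM, was lower in Th-high cells, as were Plagl1 and H19. Dlk1 was thus higher in Th-high cells at E13.5, P1 and P90, by 3.59-fold, 8.20-fold and 8.43-fold.

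The homozygotes were set against the heterozygotes at E13.5 and P1. At E13.5, 1 of 29 members was 2-fold higher in Pitx3eGFP/eGFP cells (beside 7.99% of entries) and 2 were lower (beside 8.62%), and 26 were neither. Rtl1 had 3.57 RPKM in homozygotes against 11.5 in heterozygotes, with 12.8% and 24.5% of cells over 10 RPKM. All of these homozygote and none of these heterozygote cells carry ERCC, and Rtl1 also differed by spike-in among P1 heterozygotes, with 6.04 RPKM and 16% of cells over 10 RPKM in cells with ERCC against 16.3 RPKM and 39.3% in the others, which include the cells also found at P7. Among P1 cells with ERCC, Rtl1 was at 8.40 RPKM in homozygotes against 6.04. H19 was lower and Peg12 higher, and neither exceeded 2.65 RPKM in either genotype. At P1, 1 of 32 was higher (Zim1, beside 7.42% of entries) and 5 were lower (Peg12, Slc22a18, Igf2, Peg10 and Plagl1, beside 6.75%), all of them with under 10 RPKM in homozygotes, and none of the 6 calls was kept under all of the 11 alternatives. Without the cells found at both P1 and P7, 2 were higher (beside 7.7%), with Cdkn1c in addition at 35.6 against 16.5 RPKM, and the same 5 were lower (beside 6.91%). The median log2 ratio of the members was 0.16 at E13.5 and -0.02 at P1.

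At P1 all homozygote cells and 94 heterozygote cells carry ERCC, and with ERCC cells alone 5 members were higher in homozygotes (Mest, Cdkn1c, Igf2, Igf2r and Zim1, beside 12.8% of entries) and 1 was lower (H19, beside 5.4%). Cdkn1c was then at 35.6 RPKM against 15.1 (2.35-fold). Mest had 231.99 RPKM in homozygotes against 131.04 at E13.5 and 257.6 against 156.99 at P1. Its share of cells over 10 RPKM was 19.9 points higher at E13.5 (10.2 to 29.5) and 18.3 points higher at P1 (11.6 to 24.4). Against the P1 heterozygote cells with ERCC, at 110.4 RPKM, the Mest ratio was 2.33-fold, past the limit, and the share 15.6 points higher (7.11 to 25.3). With each cell thinned to 100000 reads the Mest shares were 82.1% against 65.5% at E13.5 and 90.6% against 74.5% at P1. At P1 Inpp5f had 68.8 against 44.3 RPKM, a share 19.9 points higher (11.9 to 27.04), and Impact a share 17.04 points higher (7.80 to 25.5) at 41.03 against 39.2 RPKM. Against the heterozygote cells with ERCC the share was 13.6 points higher (3.82 to 24.1) for Inpp5f and 9.51 points higher (-1.87 to 21.2) for Impact, and Impact had 41.2 RPKM in these cells. Other shares were lower. Without the cells found at both P1 and P7, the difference was -10.4 points (-20.2 to -0.470) for Dlk1 and -10.6 (-19.4 to -1.31) for Ppp1r9a. The intervals of Peg12, Peg10 and Plagl1 then also lay under 0, and those of Magel2, Ube3a and Cdkn1c over it. With ERCC cells alone those of Dlk1 (-23.8 to 0.545) and Ppp1r9a (-18.5 to 4.13) held 0, as did those of Peg12, Peg10, Plagl1, Magel2, Ube3a and Cdkn1c. That of Rtl1 lay over 0 there, with a share 14.9 points higher in homozygotes (3.90 to 24.5). The share of all entries with such differences is not given. Ndn (1296 against 942 at E13.5, 1489.7 against 1384 at P1), Snrpn (286.1 against 271.4, 427 against 381.6) and Meg3 (2119.9 against 2490.2, 2365 against 2060.4) differed by less than 2-fold. The homozygote groups hold a smaller share of Th-high cells (43.02% at E13.5, 55.3% at P1) than the heterozygotes (64.7% and 65.5%).

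Within Th classes, E13.5 Th-high homozygote cells were 2-fold higher in 2 members (beside 11.1% of entries) and lower in 2 (beside 12%), with Asb4 at 112.2 against 46.9 RPKM and Rtl1 at 4.59 against 14.6. In E13.5 Th-low cells 5 were higher (beside 14.5%) and 3 lower (beside 12.1%), and Rtl1 was at 2.81 against 5.79. In RPM, Peg12, Rian and Igf2r of these 5 were within 2-fold, and 4 members were higher (Igf2, Zim1, Peg10 and Rasgrf1, beside 14.4% of entries). At P1 1 was higher (beside 7.79%) and 3 lower (beside 8.55%) in Th-high cells, and 2 were higher (Cdkn1c and Igf2r, beside 12%) and 6 lower (Peg12, Rtl1, Slc22a18, Igf2, Asb4 and Plagl1, beside 13.0%) in Th-low cells. Asb4 had 19.6 RPKM in these homozygote cells against 42.4, the opposite direction to E13.5 Th-high cells, and Rtl1 5.24 against 14.9. All of these homozygote but only 27 of these 92 heterozygote cells carry ERCC. In those 27 none of the 6 lower calls held. Asb4 was at 30.9, Rtl1 at 8.30 and Plagl1 at 5.32 RPKM (3.19 in homozygotes), all within 2-fold. Peg12 and Slc22a18 were under 1 RPKM in both genotypes, and Igf2 was at 0 against 14.04 in homozygotes. Cdkn1c, at 11.1 RPKM in the 27 cells, stayed past the limit. Without the cells found at both P1 and P7, 2 were higher (Cdkn1c and Zim1, beside 8.21%) and 3 lower (beside 8.5%) in Th-high cells, and 1 was higher (Cdkn1c, beside 12.3%) and 7 lower (with Mirg in addition, beside 13.5%) in Th-low cells. With all cells, the log2 ratio of Igf2r in P1 Th-low cells was 1.04 in RPKM and -0.39 in RPM. Over both Th classes, P1 homozygote cells with markers of other cell types had 15.1 RPKM of Igf2r and the others 1.74. In RPM, P1 Th-high cells had 2 members higher (Cdkn1c and Zim1, beside 7.39%). Nnat was at 4695 against 3116 RPKM in P1 Th-high homozygote cells and at 1514 against 2730 in Th-low cells, both within 2-fold. Mean Th was lower in homozygotes, so the Th classes need not hold the same kinds of cells in both genotypes. Cdkn1c was at 40.1 against 20.3 in P1 Th-high and at 29.9 against 14.5 in Th-low cells. At E13.5 Cdkn1c was lower in Th-high homozygote cells, at 140.8 against 220.7 RPKM. In E13.5 Th-low cells it was at 109.7 against 104.4, and both E13.5 ratios were within 2-fold.

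**Figure D4:**
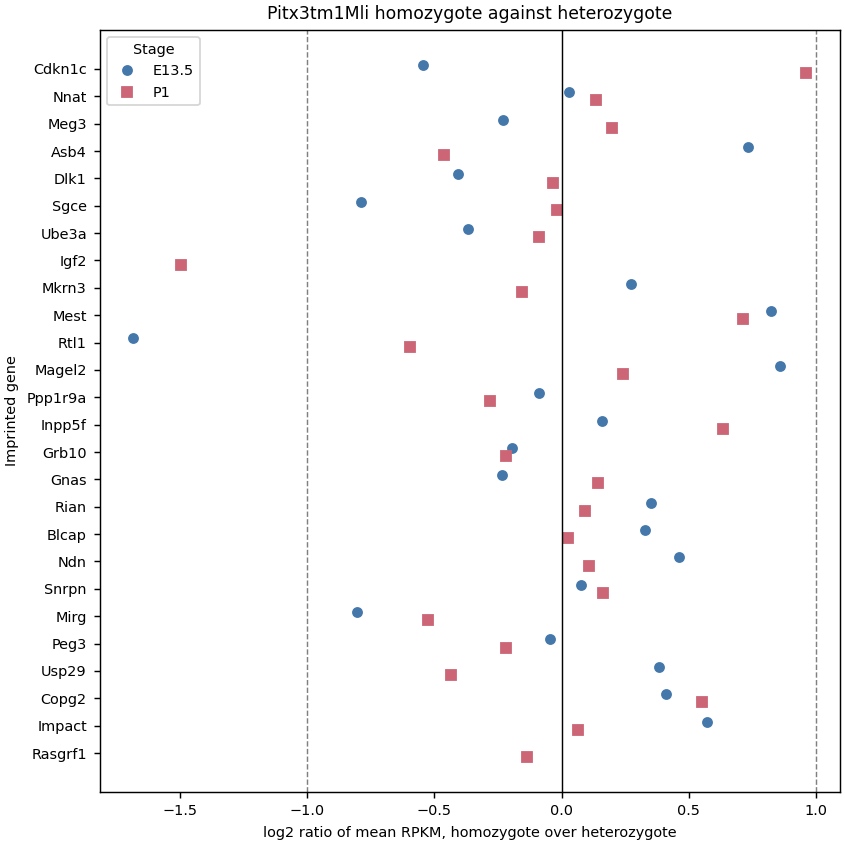
Log2 ratio of mean RPKM, homozygote over heterozygote, at E13.5 and P1 for the 26 imprinted genes with a highest stage mean of at least 10 RPKM, with dashed lines at 2-fold and a point only where 1 genotype reached 1 RPKM, which leaves out Igf2 and Rasgrf1 at E13.5. Of the points drawn, Rtl1 at E13.5 and Igf2 at P1 lie beyond a dashed line and the others between the lines.

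A further list of 31 imprinted genes that were not members was set beside them. Of these, 27 had an entry and 21 could be compared from P1 to P90, where 4 were higher (beside 13.1% of all entries), 5 lower (beside 21.5%) and 12 neither. In RPM 2 were higher (Nap1l5 and Zrsr1, beside 12.6%) and 8 of 23 lower (beside 22%), and Cd81 was within 2-fold. Gatm, an enzyme of creatine synthesis, had 32.1 RPKM at P1 and 3.78 at P90. Nap1l5, a nucleosome assembly protein, had 317.5 and 1562. Kcnk9, a potassium channel, had 29.03 and 9.61, and Cd81, a tetraspanin, had 368.4 and 762.

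Neighbouring members showed weak likeness from cell to cell. Over the P1 cells the median Spearman correlation of log RPKM was 0.09 for 34 pairs within a region and 0.02 for 371 pairs on different chromosomes, and over the P90 cells it was 0.11 for 27 pairs within a region and 0.04 for the others. Within a region, Meg3 with Rtl1 at P90 (0.43), Ndn with Snrpn at P1 (0.31), Peg10 with Asb4 at P90 (0.30) and Nnat with Blcap at P90 (0.29) were the highest. Pairs on different chromosomes ranged from -0.31 to 0.40 at P1 and from -0.50 to 0.57 at P90. The points share the depth of a cell, and reads of the Rtl1 entry could not be assigned to a strand.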

How the data were processed

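Single GFP-positive ventral midbrain cells were sequenced with Smart-seq2 in 1699 libraries of 1 cell each. The authors aligned reads with STAR, named in the submitters' processing notes, to mm10 with the eGFP and ERCC sequences, kept uniquely mapping reads and deposited for each Ensembl entry a read count, not normalized, and an RPKM made with rpkmforgenes. The deposited RPKM is scaled by transcript length and by the depth of the library. Library strand was not kept, so overlapping genes share reads. In 45 values reads stood beside an RPKM of 0. The RPKM per read of entries with several transcripts differed between stages, so reads scaled to depth alone (RPM, reads on genes) are given where the unit mattered.

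The filter asked for over 100000 reads and for detection of 15% or more (3.4% at P90) of the 31526 entries that any cell detects, limits taken from the methods, and 1649 cells passed. All cells over 100000 reads were clustered, P90 cells apart from the others (leidenalg 0.10.2, igraph 0.11.9 and scikit-learn 1.9.0, 1000 variable genes, 30 components, 15 neighbours). Clusters in which 3 or more oligodendrocyte markers were over 10 RPKM in most cells were removed. They held 10.2% of the cells that passed, so that 1481 remained. Limits on alignment quality were not applied and no doublet caller was run.

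The members, the further list of imprinted genes and the comparisons were chosen with earlier results of these data known. Values are given in full for members with a highest stage mean of at least 10 RPKM, and of the further list the 4 such genes with the largest log2 ratio from P1 to P90 are named. A gene was called where 1 group reached 1 RPKM and the ratio of means was 2-fold or more, over all entries alike. Alternatives changed the unit, depth, cell filters, low-value filter, highest 1% of cells, spike-in cells, plates and Th limit. The RPM counts within Th classes and for the further list, the Nxph4 and Gad2 splits without Slc6a3 cells, and the values without cells found at both P1 and P7 (libraries whose log2(RPM + 1) correlated over 0.9), were added after the data were seen. Gene positions are from GENCODE vM21 for GRCm38, the assembly that mm10 names, and 38325 entries had a symbol. RefSeq promoters matched 29 of the 36 members. Python 3.11.15, numpy 2.4.6, pandas 2.3.3, scipy 1.17.1 and matplotlib 3.10.9 were used.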

Additional observations from a re-analysis of the deposited data

Results flagged for a closer look

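Peg12 was on opposite sides of the 2-fold limit by genotype at the 2 ages, with a log2 ratio of homozygote over heterozygote of 1.36 at E13.5 and -2.33 at P1, and the difference between the ages was not tested. The means were 2.65 against 1.03 RPKM at E13.5 and 0.227 against 1.14 at P1, and at E13.5 14 homozygote cells (7.82%) and 5 heterozygote cells (3.60%) were over 10 RPKM. At P1, 8 heterozygote cells and 0 homozygote cells were over 10 RPKM, and none of the homozygote cells allows a share of up to 1.89%, by a limit of 3 cells. The P1 ratio was within 2-fold with ERCC cells alone (0.227 RPKM against 0.337, a log2 ratio of -0.57) and with the reads filter alone (-0.78), and the E13.5 ratio was within it when cells were thinned to 100000 reads (0.88). At E13.5 genotype cannot be told apart from spike-in and plate.

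Peg12 also had a mean of 9.97 RPKM in the cells left out as oligodendrocyte-like, with 18.5% of them over 10 RPKM, while the highest mean in kept heterozygote cells was 1.14 RPKM, at P1, and 1.32 there without the cells found at both P1 and P7. Whether such cells contribute to the values of the kept cells was not tested. Without the kept cells that hold markers of other cell types, Peg12 at P1 had 0.932 RPKM in heterozygotes and 0.161 in homozygotes.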

How the results depend on the processing

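No test between groups could be made, since each stage and genotype is 1 sample, and the spread between animals is unknown. No paired analysis was possible because no label gives a replicate or animal number. Of 1641 values recomputed under an alternative, 8 changed direction and 23.5% moved. Those that moved were 37 counts of genes (by over 1.5 times), 63 ratios of single members (a call lost) and otherwise shares of cells outside their 95% interval, of which 11 were with thinned cells and the others with a limit of 1 or 50 RPKM. From P1 to P90, 10 of 15 called members (Mkrn3, Snrpn, Meg3, Cdkn1c, Copg2, Sgce, Asb4, Nnat, Impact and Rasgrf1) were called under all of 15 alternatives, and from E13.5 to P90 13 of 16 under all of 9. By Th, 8 of 11 at E13.5, 1 of 7 at P1 (Dlk1) and 3 of 5 at P90 (Dlk1, Asb4 and Nnat) were. By genotype, 1 of 3 at E13.5 (Rtl1) and 0 of 6 at P1 were, but no alternative at E13.5 separates genotype from spike-in, and among P1 heterozygotes Rtl1 was at 6.04 RPKM with ERCC against 16.3 without. The cause of a changed count was not tested. Shares of all called entries kept in the same way are not given, so these counts of kept calls have no background. The number of alternatives also differed between comparisons.

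The share of all entries under the same setting stands in brackets. With ERCC cells alone, which leaves E18.5, P1 and P90, 8 members were higher (17.8%) and 7 lower (17.5%) from P1 to P90, 13 had their maximum at P90 (39.6%), 8 were over 2-fold under their maximum at P90 (22.6%), 5 were higher (12.8%) and 1 lower (5.4%) in P1 homozygotes, and 2 were lower in P1 Th-high cells (13.6%). With means of at least 10 RPKM, 2 were lower from E13.5 to E18.5 (8.72%), 0 higher (1.68%) and 1 lower (2.4%) in E13.5 homozygotes, 0 higher (2.17%) and 1 lower (1.62%) in P1 homozygotes, and 1 higher (1.99%) and 3 lower (3.76%) in P1 Th-high cells. With no filter, 6 were higher from E13.5 to E18.5 (28.6%), 5 higher in E13.5 homozygotes (21.8%), 5 lower in E13.5 Th-high cells (17%) and 4 lower in P90 Th-high cells (16.6%). Without the highest 1% of cells, 3 were lower from E13.5 to E18.5 (10.4%), 1 lower in E13.5 (5.26%) and 2 lower in P1 homozygotes (4.81%). In RPM, 3 were higher in E13.5 (8.08%) and 2 in P1 homozygotes (6.83%), 1 was lower in E13.5 Th-high (11.3%) and 2 higher in P1 Th-high homozygote cells (7.39%), and of the further list 2 were higher (12.6%) and 8 lower (22%) from P1 to P90. With thinned cells, 0 were higher in E13.5 homozygotes (9.71%) and 1 in P1 Th-high cells (8.74%). With detection over all entries 2 were higher in P1 homozygotes (4.05%). Without cells that hold markers of other cell types, an alternative chosen after the data were seen, 2 were higher (5.46%) and 3 lower (7.04%) there. Without the cells found at both P1 and P7, also chosen after the data were seen, 2 were higher there (7.7%). In P90 Th-high cells 0 were lower with a Th limit of 50 (6.03%) or 10 RPKM (5.85%) and without plate 2 (7.39%) or plate 5 (7.04%).

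Values of few cells changed direction. The log2 ratio of Igf2 in P1 homozygotes was 1.77 without the highest 1% of cells, 8.96 with ERCC cells and 1.90 without marker cells, and there Slc22a18 was 6.24 and Peg10 0.45 with ERCC cells. By Th at P1, Igf2 was 0.56 with oligodendrocyte-like cells kept, 0.81 with a Th limit of 10 and 0.64 without marker cells.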

Other observations

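The cells left out as oligodendrocyte-like, most of them from P1 and P7, held other members as well. Their mean RPKM was 405 for Ndn, 1039 for Nnat, 60.3 for Sgce and 56.9 for Igf2, and 14.8 for Mkrn3, with 93.5% of these cells over 10 RPKM of Ndn and 11.9% over 10 RPKM of Mkrn3. These cells are in none of the main comparisons.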
